A study of Mus musculus with 6 samples.

Results

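The genes described here are 6 interferon-linked genes, *Parp9*, *Parp10*, *Parp11*, *Parp12*, *Parp14* and *Dtx3l*, with *Parp1* and *Parp2* as a DNA-repair contrast. They were taken by gene symbol. All 8 were found among the 54331 genes of the expression table. Each had a mean of 1 TPM or more and was tested, as were 15382 genes in all (TPM, or transcripts per 1000000, is a level already corrected for transcript length).

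At 10 days post infection (dpi), RNA of the OSKA + 4OHT group (3 wells) was compared with that of the OSKA − 4OHT group (3 wells). Both groups were mouse embryonic fibroblasts (MEFs) from E13.5 male Oct4-EGFP transgenic embryos of a mixed C57BL/6, DBA/2 and ICR background, and both had received retroviruses for Oct4, Sox2, Klf4 and AKT-MER. AKT-MER is myristoylated AKT joined to a modified estrogen receptor, and 4-hydroxytamoxifen (4OHT) switches it on. The OSKA + 4OHT wells received 4OHT and the OSKA − 4OHT wells received the vehicle, so the comparison asks how AKT activation alters gene expression in cells under reprogramming. All 6 wells carried AKT-MER, so within these wells an effect of 4OHT itself and an effect of AKT activation cannot be told apart. For cells without AKT-MER, the paper reports that the drug had limited effects on reprogramming efficiency and, by microarray, on gene expression. Such cells were not among the wells compared here, and the effect of the drug alone on the genes described here was not tested. Several embryos had been pooled and the infected cells were plated into wells afterwards, so the p-values measure the spread between wells, which may be technical.

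PARP enzymes take ADP-ribose from NAD+ and attach it to proteins. PARP1 and PARP2 build chains of ADP-ribose at DNA breaks and so recruit repair factors. Interferons act through the receptor-bound kinases JAK1 and TYK2, which activate the transcription factor ISGF3, of which STAT2 and IRF9 are parts. Several PARP genes and *Dtx3l* are known as targets of this pathway in many cell types, fibroblasts included. PARP9 works in a complex with DTX3L, an E3 ubiquitin ligase of the Deltex family.

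None of the 8 genes was listed at 0 in any well. The number of genes with a value above 0 was 15814 to 17692 per OSKA − 4OHT well and 17578 to 18230 per OSKA + 4OHT well. TPM values do not keep the sequencing depth, which is therefore unknown here. Wells of a group correlated across genes with r = 0.809 to 0.864, where the genes are not independent replicates. Wells of different groups correlated with r = 0.792 to 0.833, which overlaps that range. The 9 fibroblast markers were all tested, and their summed level was 7953 to 9773 TPM in the OSKA − 4OHT wells and 4850 to 5938 TPM in the OSKA + 4OHT wells. Of their log2 fold changes, 6 were below 0 and 3 above, with a median of -0.53. Without *Vim*, *Col1a1*, *Col1a2* and *S100a4*, a split made after the values were seen, the other 5 summed to 368, 374 and 324 TPM in the OSKA − 4OHT wells and 473, 489.8 and 625 TPM in the OSKA + 4OHT wells, the opposite direction. In these bulk cultures, fewer cells of a type and less RNA per cell cannot be told apart.

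The start regions of 4 members are shown first, because they show how the genes are arranged and where interferon-type motifs lie. They are RefSeq sequences of GRCm38.p6, each with 250 bases before and 50 bases from the gene's start, written 5′ to 3′ on the strand of the gene. The tables used here held 6 such windows for 5 of the 8 genes, and *Parp9*, *Parp10* and *Parp14* were not matched. The *Dtx3l* window (chr16:35938978-35939277, minus strand) is given because *Parp9* starts within it on the other strand. Its capitals mark the RefSeq start base of *Dtx3l* and the bases that face the first bases of annotated *Parp9* transcripts. The upstream *Parp11* window (chr6:127446590-127446889, plus strand) has the matched motifs in capitals. The *Parp12* window (chr6:39118300-39118599, minus strand) and the *Parp1* window (chr1:180568641-180568940, plus strand) belong to members called higher and hold no match.
Dtx3l: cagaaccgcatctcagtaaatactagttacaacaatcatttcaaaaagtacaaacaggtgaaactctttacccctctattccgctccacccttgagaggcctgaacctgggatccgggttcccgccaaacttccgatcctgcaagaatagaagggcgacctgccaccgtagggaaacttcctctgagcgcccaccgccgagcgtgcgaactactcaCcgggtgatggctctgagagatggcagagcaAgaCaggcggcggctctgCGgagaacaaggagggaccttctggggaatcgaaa
Parp11: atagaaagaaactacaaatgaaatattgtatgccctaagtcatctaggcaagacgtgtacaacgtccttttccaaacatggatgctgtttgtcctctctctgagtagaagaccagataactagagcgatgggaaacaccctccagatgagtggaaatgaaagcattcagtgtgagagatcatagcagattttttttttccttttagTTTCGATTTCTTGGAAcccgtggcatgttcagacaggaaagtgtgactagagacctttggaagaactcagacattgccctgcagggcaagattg
Parp12: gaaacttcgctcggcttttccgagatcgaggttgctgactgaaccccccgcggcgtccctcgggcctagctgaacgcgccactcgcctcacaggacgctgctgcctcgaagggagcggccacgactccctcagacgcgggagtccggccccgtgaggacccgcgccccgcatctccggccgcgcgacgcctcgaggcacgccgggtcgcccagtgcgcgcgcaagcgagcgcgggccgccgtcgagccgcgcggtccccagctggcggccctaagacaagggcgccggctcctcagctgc
Parp1: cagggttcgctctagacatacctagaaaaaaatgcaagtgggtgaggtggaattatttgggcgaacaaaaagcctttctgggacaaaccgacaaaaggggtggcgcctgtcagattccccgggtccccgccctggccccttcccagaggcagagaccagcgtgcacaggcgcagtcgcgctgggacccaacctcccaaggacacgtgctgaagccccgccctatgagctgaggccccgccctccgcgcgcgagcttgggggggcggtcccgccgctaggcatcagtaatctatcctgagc

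The windows were searched on both strands for TTTC and TTTC separated by NN, the core of the interferon-stimulated response element bound by ISGF3, and for TTCNNNGAA, the gamma-activated site of the response to interferon gamma, with N for any base. Of 32851 promoter windows of the same length, 1131 (3.44%) held the first motif and 2726 (8.3%) the second. Among the 6 member windows, the upstream window of *Parp11* alone held either motif. It held TTTCGATTTC at position -44 and TTCTTGGAA at position -37, counted from the start base as 0, and the matches overlap. The *Dtx3l*, *Parp12*, *Parp1* and *Parp2* windows and the second *Parp11* window (chr6:127453377-127453676) held neither, which says only that these letters are not in these windows.

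Of the 6 interferon-linked genes, *Parp9*, *Dtx3l* and *Parp12* rose in the OSKA + 4OHT group, by 2.24-fold to 3.01-fold as ratios of mean TPM. *Parp14* and *Parp11* were higher in every OSKA + 4OHT well but did not pass the test over all genes, and *Parp10* overlapped between the groups. *Parp1* of the DNA-repair contrast rose as well, by 3.04-fold, while the values of *Parp2* overlapped. Calls were made by limma-trend on log2(TPM + 0.5), with Benjamini-Hochberg adjustment over the 15382 genes, and needed an adjusted p below 0.05 together with a log2 fold change beyond 1 in size. The 3 of 6 calls stand beside 2.87% of all tested genes called higher. The number called was 0 to 3 when 1 well was left out, and 0 with the replicate number as a block in the model. The 5 of 6 genes whose OSKA + 4OHT wells all lay above the OSKA − 4OHT wells stand beside 18.1% of all tested genes. The median log2 fold change of the 6 genes was 1.14, against 0.14 for all tested genes. None of the 8 was lower by either rule, for which the shares of all tested genes were 1.37% and 10.0%. At an adjusted p under 0.05 alone, the same 3 genes counted as higher, beside 3.52% of all tested genes (1.97% lower), and at an unadjusted p under 0.05 all but *Parp10* did, beside 14.1% (7.18% lower).

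**Figure D1:**
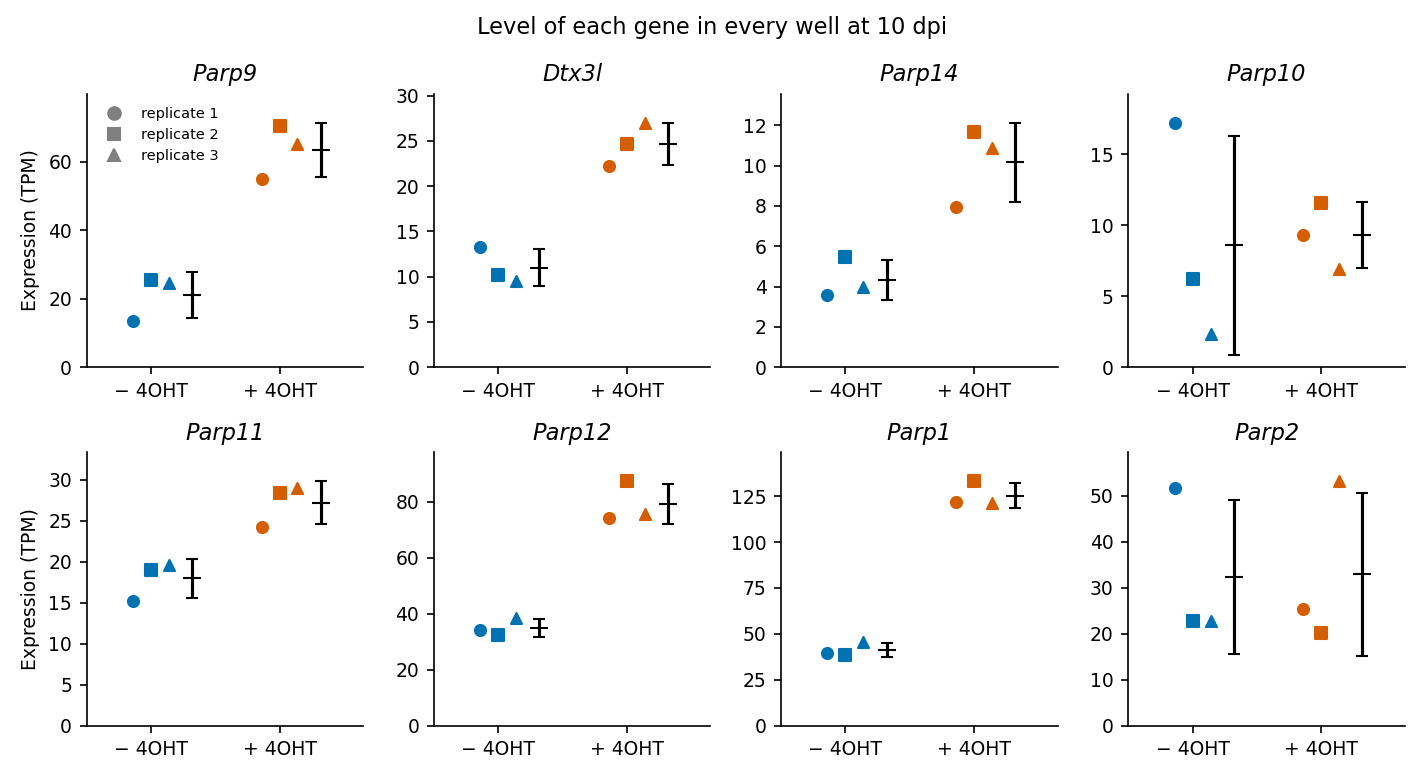
Level of each of the 8 genes in TPM (vertical axes, each from 0) in the OSKA − 4OHT wells (blue) and OSKA + 4OHT wells (orange) at 10 dpi, with a marker shape per replicate and the mean ± SD of the 3 wells as a black bar. The groups are separate for *Parp9*, *Dtx3l*, *Parp14*, *Parp11*, *Parp12* and *Parp1*, and they overlap for *Parp10* and *Parp2*.

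*Parp9* encodes a PARP that binds ADP-ribose through macrodomains and pairs with DTX3L. The gene (ENSMUSG00000022906) lies on the plus strand of chromosome 16 (GRCm38, 35938470 to 35972605). It was at 13.48, 25.4 and 24.4 TPM in OSKA − 4OHT replicates 1, 2 and 3 (21.1 ± 6.63, SD, n = 3), and it was at 54.98, 70.5 and 65.1 TPM in OSKA + 4OHT replicates 1, 2 and 3 (63.5 ± 7.86, SD, n = 3). Every OSKA + 4OHT well was more than double the highest OSKA − 4OHT well, and OSKA − 4OHT replicate 1 was lower than the other two of its group. This is a log2 fold change of 1.61 (standard error 0.276, 95% interval 0.95 to 2.28), with an adjusted p of 0.0283 by limma-trend. Of all tested genes, 6.52% had a log2 fold change at least as high. Over the 14 alternatives the adjusted p was from 0.0226 to 0.112 and under 0.05 in 7, and among the fits that left out a well it stayed under 0.05 only without OSKA − 4OHT replicate 1 (0.0349). Leaving out any of the other 5 wells gave 0.0558 to 0.112.

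*Dtx3l* encodes the ubiquitin ligase partner of PARP9. The gene (ENSMUSG00000049502) lies on the minus strand of chromosome 16 (35926511 to 35939151). It was at 13.3, 10.2 and 9.49 TPM in OSKA − 4OHT replicates 1, 2 and 3 (11.0 ± 2.03, SD, n = 3), and it was at 22.3, 24.7 and 27.0 TPM in OSKA + 4OHT replicates 1, 2 and 3 (24.6 ± 2.35, SD, n = 3). The groups did not overlap, and the wells within each group lay close together. On the log2 scale the difference was 1.14 (standard error 0.201, 95% interval 0.66 to 1.63), with an adjusted p of 0.0299 by limma-trend. Over the 14 alternatives the adjusted p was from 0.0233 to 0.127 and under 0.05 in 7, and with a well left out it was under 0.05 only without OSKA − 4OHT replicate 1 (0.0436), against 0.0803 to 0.114 without any of the other 5 wells.

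The level of *Parp9* over that of *Dtx3l* within a well was 1.01, 2.50 and 2.58 in OSKA − 4OHT replicates 1, 2 and 3 and 2.47, 2.86 and 2.41 in OSKA + 4OHT replicates 1, 2 and 3. The ratios of the groups overlapped, and OSKA − 4OHT replicate 1, in which *Parp9* was lowest and *Dtx3l* highest of its group, stood apart. The models of these genes overlap head to head by 682 bases in GENCODE M21, and 458 exonic bases are shared on opposite strands (9.40% of the exonic bases of *Parp9* and 8% of those of *Dtx3l*). Among the 7 annotated *Parp9* transcripts, 4 distinct start positions lie inside the *Dtx3l* window printed above. The lowest-numbered of these positions, 35939011, is 16 bases from the RefSeq start of *Dtx3l* at 35939027, and another lies nearer. The library kit was stranded, but the strand setting of the quantification was not given in the sources used here, so reads from the shared bases may count towards either gene. Of the 31-base words in their transcripts, 8.56% for *Parp9* and 9.68% for *Dtx3l* also occur in transcripts of other genes on the opposite strand.

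*Parp14* encodes a large macrodomain PARP that adds single ADP-ribose units and is known for its part in STAT6 signalling. The gene (ENSMUSG00000034422) lies on the minus strand of chromosome 16 (35832874 to 35871544). It was at 3.58, 5.46 and 3.96 TPM in OSKA − 4OHT replicates 1, 2 and 3 (4.34 ± 0.990, SD, n = 3), and it was at 7.92, 11.7 and 10.9 TPM in OSKA + 4OHT replicates 1, 2 and 3 (10.1 ± 1.97, SD, n = 3). The groups did not overlap. The log2 fold change of 1.14 (standard error 0.270, 95% interval 0.49 to 1.79) nearly equals that of *Dtx3l*, but the adjusted p was 0.0654 by limma-trend and the gene was not called. In the 14 alternatives the adjusted p was from 0.0688 to 0.205.

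*Parp12* encodes a zinc finger PARP that adds single ADP-ribose units and limits several RNA viruses. The gene (ENSMUSG00000038507) lies on the minus strand of chromosome 6 (39086410 to 39118349). It was at 34.2, 32.4 and 38.5 TPM in OSKA − 4OHT replicates 1, 2 and 3 (35.0 ± 3.16, SD, n = 3), and it was at 74.4, 87.4 and 75.8 TPM in OSKA + 4OHT replicates 1, 2 and 3 (79.2 ± 7.12, SD, n = 3). It was the most abundant of the 6 genes in every well. The log2 fold change was 1.16 (standard error 0.147, 95% interval 0.81 to 1.52), with an adjusted p of 0.0117 by limma-trend, the lowest of the 6. Over the 14 alternatives the adjusted p was from 0.00904 to 0.0857 and under 0.05 in 11, and it was 0.0562 without OSKA + 4OHT replicate 1 and 0.0582 without OSKA + 4OHT replicate 2.

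*Parp11* encodes a PARP that adds single ADP-ribose units and is known to lower the type I interferon receptor. The gene (ENSMUSG00000037997) lies on the plus strand of chromosome 6 (127446840 to 127494261). It was at 15.3, 19.0 and 19.6 TPM in OSKA − 4OHT replicates 1, 2 and 3 (18.0 ± 2.35, SD, n = 3), and it was at 24.2, 28.4 and 29.0 TPM in OSKA + 4OHT replicates 1, 2 and 3 (27.2 ± 2.61, SD, n = 3). The groups did not overlap, yet the log2 fold change was 0.59 (standard error 0.181, 95% interval 0.15 to 1.03) and the adjusted p 0.127 by limma-trend. *Parp11* is, of the 5 members whose start windows were searched, the gene with both motifs.

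*Parp10* encodes a PARP that adds single ADP-ribose units and binds ubiquitin. The gene (ENSMUSG00000063268) lies on the minus strand of chromosome 15 (76231174 to 76243441). It was at 17.2, 6.23 and 2.32 TPM in OSKA − 4OHT replicates 1, 2 and 3 (8.59 ± 7.72, SD, n = 3), and it was at 9.30, 11.6 and 6.95 TPM in OSKA + 4OHT replicates 1, 2 and 3 (9.28 ± 2.32, SD, n = 3). The OSKA − 4OHT wells held both the highest and the lowest value of all 6 wells. The log2 fold change was 0.46 (standard error 0.653, 95% interval -1.11 to 2.04; adjusted p = 0.723 by limma-trend), and the interval covers both a fall and a rise of more than double. It was -0.19 without OSKA − 4OHT replicate 3 and 1.14 without OSKA − 4OHT replicate 1. On the same strand, 205 exonic bases of *Parp10* (4.80%) are shared with *Plec*, so part of its reads could have been split with that gene.

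*Parp1* encodes the main PARP of the DNA damage response. The gene (ENSMUSG00000026496) lies on the plus strand of chromosome 1 (180568924 to 180601254). It was at 39.5, 38.3 and 45.7 TPM in OSKA − 4OHT replicates 1, 2 and 3 (41.2 ± 4.00, SD, n = 3), and it was at 122, 133 and 121 TPM in OSKA + 4OHT replicates 1, 2 and 3 (125 ± 6.73, SD, n = 3). The groups were far apart compared with the spread between wells. On the log2 scale the difference was 1.60 (standard error 0.136, 95% interval 1.27 to 1.92), with an adjusted p of 0.00376 by limma-trend, the lowest of the 8 genes. The adjusted p was from 0.00293 to 0.0574 over the 14 alternatives and under 0.05 in 13 of them, and in all 6 fits that left out a well. The rise of the contrast gene was thus close to that of *Parp9*, at 3.04-fold against 3.01-fold in means and 1.60 against 1.61 on the log2 scale.

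*Parp2* encodes the closest relative of PARP1 in DNA repair. The gene (ENSMUSG00000036023) lies on the plus strand of chromosome 14 (50807841 to 50821301). It was at 51.7, 22.7 and 22.8 TPM in OSKA − 4OHT replicates 1, 2 and 3 (32.4 ± 16.7, SD, n = 3), and it was at 25.5, 20.2 and 53.1 TPM in OSKA + 4OHT replicates 1, 2 and 3 (32.9 ± 17.7, SD, n = 3). In each group, 1 well was about double the others. The log2 fold change was 0.0099 (standard error 0.470, 95% interval -1.12 to 1.14; adjusted p = 0.994 by limma-trend), so a change of up to about double in either direction lies within the interval. Its sign turned under other scalings, to -0.12 when a trimmed mean of log ratios set the scale and to -0.13 after quantile normalization. When 1 well was left out, the log2 fold change was -0.39 to 0.40.

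The summed level of the 6 interferon-linked genes was 97.1, 98.6 and 98.3 TPM in OSKA − 4OHT replicates 1, 2 and 3 and 193, 234 and 215 TPM in OSKA + 4OHT replicates 1, 2 and 3. The sum was nearly equal in the OSKA − 4OHT wells although *Parp9* and *Parp10* differed among them. *Parp12* held 32.8% to 39.2% of this sum over the 6 wells. The share of *Parp11* was 15.7% to 19.9% in the OSKA − 4OHT wells and 12.1% to 13.51% in the OSKA + 4OHT wells.

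By mean TPM in the OSKA − 4OHT group, the order of levels was *Parp1*, *Parp12*, *Parp2*, *Parp9*, *Parp11*, *Dtx3l*, *Parp10* and *Parp14*. Of the neighbours in this order, only *Parp11* and *Dtx3l* had values that did not overlap. In the OSKA + 4OHT group the order was *Parp1*, *Parp12*, *Parp9*, *Parp2*, *Parp11*, *Dtx3l*, *Parp14* and *Parp10*. Here *Parp1* and *Parp12*, *Parp12* and *Parp9*, *Parp9* and *Parp2*, and *Dtx3l* and *Parp14* did not overlap, and the other neighbours did.

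Whether the interferon-linked genes responded differently from the DNA-repair genes was tested on the log2 ratio of (TPM + 0.5) within each well, by an exact two-sided permutation test of 3 wells against 3, which cannot give a p under 0.1. Of 12 ratios, 5 did not overlap between the groups, each with p = 0.1 in this exact test and 0.24 after Benjamini-Hochberg adjustment over the 12. With this number of wells no ratio could have passed, so these p-values bear neither way on a difference in response, and the ratios are given as a description. The 12 ratios share *Parp1* or *Parp2* as their reference, so they are not independent results. The share of all tested genes with such ratios free of overlap was not computed. The ratio of *Parp9* to *Parp1* was -1.52, -0.58 and -0.89 in OSKA − 4OHT replicates 1, 2 and 3 and -1.14, -0.91 and -0.89 in OSKA + 4OHT replicates 1, 2 and 3. These overlapped, with a difference of 0.015 between the group means (exact permutation p = 1). The ratio of *Parp12* to *Parp1* was between -0.24 and -0.20 in the OSKA − 4OHT wells and between -0.71 and -0.60 in the OSKA + 4OHT wells, a difference of -0.43 with a pooled SD of 0.0401 between wells. For *Parp11* over *Parp1* the difference was -1.01 (pooled SD 0.156), from -1.34, -0.99 and -1.20 to -2.31, -2.21 and -2.04, and for *Parp14* over *Parp1* it was -0.46 (pooled SD 0.310). In these 3 ratios every OSKA + 4OHT well was lower than every OSKA − 4OHT well. The ratio of *Dtx3l* to *Parp1* differed by -0.46 with overlap (exact permutation p = 0.2, adjusted 0.3), and that of *Parp10* by -1.13 (exact permutation p = 0.4, adjusted 0.48). With 1 well left out, the difference against *Parp1* was -0.46 to -0.41 for *Parp12* and -1.09 to -0.91 for *Parp11*. It was -0.58 to -0.25 for *Parp14*, smallest without OSKA − 4OHT replicate 2, and -0.63 to -0.29 for *Dtx3l*, smallest without OSKA − 4OHT replicate 1. For *Parp10* it was -1.86 without OSKA − 4OHT replicate 3 and -0.43 without OSKA − 4OHT replicate 1, and for *Parp9* it was -0.24 to 0.22 and changed sign.

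**Figure D2:**
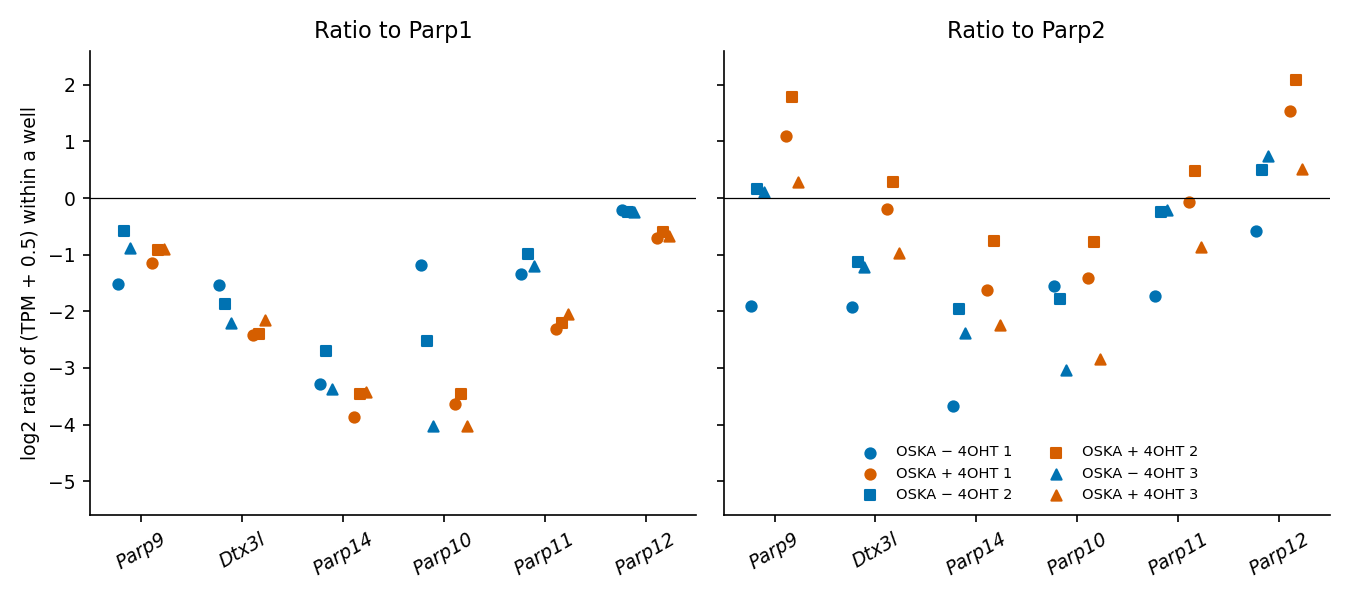
Log2 ratio of (TPM + 0.5) of each interferon-linked gene to *Parp1* (left) and to *Parp2* (right) within each well (vertical axis), with OSKA − 4OHT wells in blue, OSKA + 4OHT wells in orange and a marker shape per replicate. The ratio to *Parp1* was lower in every OSKA + 4OHT well for *Parp14*, *Parp11* and *Parp12*, and the ratio to *Parp2* was higher in every OSKA + 4OHT well for *Parp9* and *Dtx3l*.

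Against *Parp2*, the differences were positive for all 6 genes with all wells in. They were 1.60 for *Parp9* and 1.13 for *Dtx3l*, whose ratios did not overlap between the groups, and 1.13 for *Parp14*, 1.15 for *Parp12*, 0.58 for *Parp11* and 0.45 for *Parp10*, whose ratios overlapped. The wells with high *Parp2*, OSKA − 4OHT replicate 1 and OSKA + 4OHT replicate 3, had the lowest ratio of their group in 5 and 6 of the 6 genes. Without OSKA − 4OHT replicate 1 the difference fell to 0.93 for *Parp9*, 0.63 for *Parp14*, 0.75 for *Parp12* and 0.081 for *Parp11*, and without OSKA + 4OHT replicate 3 it was 1.98, 1.48, 1.59 and 0.94. Without OSKA + 4OHT replicate 2 it was 0.74 for *Parp14*, 0.26 for *Parp11*, 0.80 for *Parp12* and 0.0018 for *Parp10*. For *Dtx3l* it was 0.84 to 1.47 over the 6 fits, and for *Parp10* it reached -0.0038 without OSKA − 4OHT replicate 3 and 1.04 without OSKA + 4OHT replicate 3.

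*Parp14*, *Dtx3l* and *Parp9* form a block of 139732 bases on chromosome 16 (35832874 to 35972605), with 54966 bases between the *Parp14* and *Dtx3l* models. Genes that start within 200000 bases of the block were compared to see whether the region moved as a whole. Of 21 genes in the table there, 11 were tested, 8 of which are not members. Only *Ccdc58* (now *Mix23*, a mitochondrial protein gene) was called among these 8, beside 2.87% of all tested genes called higher. It was at 16.9, 8.60 and 12.1 TPM in the OSKA − 4OHT wells and 49.6, 42.9 and 38.8 TPM in the OSKA + 4OHT wells, and its log2 fold change was 1.81 (standard error 0.270; adjusted p = 0.0183 by limma-trend). Its adjusted p was 0.0146 to 0.0843 over the alternatives, and 0.0561 to 0.0843 when OSKA − 4OHT replicate 3 or any OSKA + 4OHT well was left out. *Fam162a*, whose start lies next to that of *Ccdc58*, had a log2 fold change of 1.08 (adjusted p = 0.0798 by limma-trend), and 0.0313 without OSKA + 4OHT replicate 3 within a range of 0.0313 to 0.226. The log2 fold changes of *Dirc2*, *Hspbap1*, *Kpna1*, *Gm15564* and *Wdr5b* were 0.23, -0.046, -0.057, 0.35 and 0.55, with adjusted p-values of 0.527 to 0.942 by limma-trend. *Gm10237* was above 0 in OSKA + 4OHT replicate 1 only, at 8.33 TPM.

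**Figure D3:**
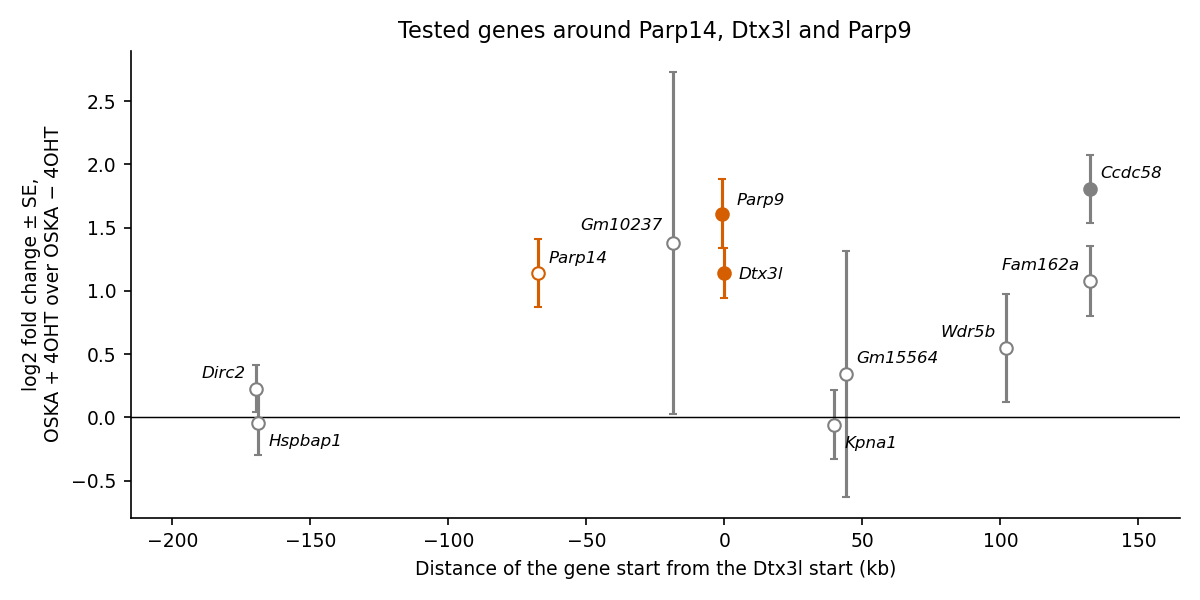
Log2 fold change of OSKA + 4OHT over OSKA − 4OHT ± standard error (vertical axis) for the 11 tested genes around *Parp14*, *Dtx3l* and *Parp9*, by the distance of each gene's start from that of *Dtx3l* in kb (horizontal axis), with members in orange, other genes in grey and filled points for an adjusted p under 0.05. *Parp9*, *Dtx3l* and *Ccdc58* are the filled points, and *Kpna1* and *Hspbap1* lie near 0.

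Of 9 further PARP family members, all tested, none was called in either direction, and their median log2 fold change was -0.0074 against 0.14 for all tested genes. For this list and those below, the shares of all tested genes called were 2.87% higher and 1.37% lower. Of the 9, 2 were higher and 2 lower without overlap (18.1% and 10.0% of all tested genes), and these were named after their values were seen. *Zc3hav1*, which encodes the antiviral zinc finger protein PARP13, was at 34.4 ± 1.99 and 44.1 ± 2.18 TPM (SD, n = 3 each), with a log2 difference of 0.35 (adjusted p = 0.215 by limma-trend). *Parp8* was at 15.1 ± 5.23 and 6.83 ± 1.87 TPM (SD, n = 3 each), with a log2 difference of -1.07 (adjusted p = 0.133 by limma-trend). The others were *Parp6*, with a log2 fold change of 0.57, and the tankyrase gene *Tnks*, with -0.67 (adjusted p = 0.337 and 0.322 by limma-trend).

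Of 8 genes for the removal of ADP-ribose, none was called and the median log2 fold change was 0.086. Among them *Adprh*, a hydrolase that frees arginine from ADP-ribose and was also named after its values were seen, was at 35.2 ± 13.4 and 16.5 ± 2.39 TPM (SD, n = 3 each), with a log2 difference of -1.01 (adjusted p = 0.141 by limma-trend). Its adjusted p was 0.0491 without OSKA − 4OHT replicate 1, in a range of 0.0491 to 0.320. Of 4 other Deltex genes, 3 were tested and none was called, with a median of 0.75. *Dtx1*, also named after its values were seen, was low, at 0, 0.303 and 0 TPM in the OSKA − 4OHT wells and 4.43, 1.23 and 0.975 TPM in the OSKA + 4OHT wells, with no overlap (adjusted p = 0.202 by limma-trend). It reached the mean of 1 TPM needed for testing only through the OSKA + 4OHT wells. Its lack of overlap, and the Deltex median that includes it, are therefore no support for a change.

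**Figure D4:**
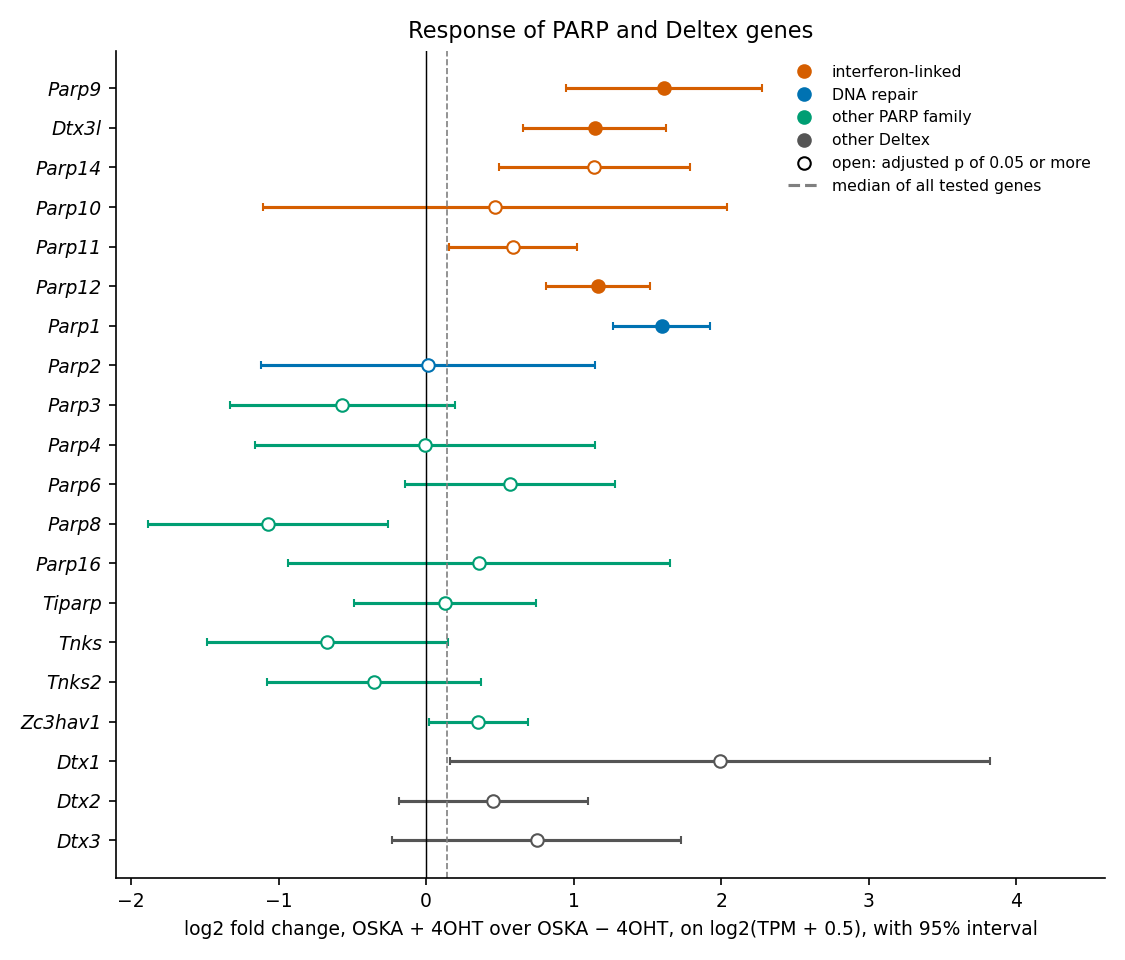
Log2 fold change of OSKA + 4OHT over OSKA − 4OHT on log2(TPM + 0.5) with its 95% interval (horizontal axis) for the 8 genes, 9 other PARP family genes and 3 other Deltex genes, with filled points for an adjusted p under 0.05 and a dashed line at 0.14, the median of all tested genes. *Parp9*, *Dtx3l*, *Parp12* and *Parp1* are filled, and no gene of the other families is.

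Among 14 genes of strand break and base excision repair, the processes PARP1 serves, 1 was called higher and none lower. These counts stand beside 2.87% and 1.37% of all tested genes. Of the 14, 4 were higher and none lower without overlap (18.1% and 10.0% of all tested genes). The median log2 fold change was 0.36. The called gene was *Lig1*, the ligase that joins Okazaki fragments and repair patches. It was at 17.6, 24.3 and 11.8 TPM in the OSKA − 4OHT wells and 47.5, 49.8 and 43.9 TPM in the OSKA + 4OHT wells. Its log2 fold change was 1.42 (standard error 0.272, adjusted p = 0.0381 by limma-trend). The adjusted p was 0.0299 to 0.137 over the alternatives, and with a well left out it was under 0.05 only without OSKA − 4OHT replicate 2 (0.0400). Among 12 genes of NAD synthesis and use, which supply or compete for the PARP substrate, 10 were tested, and the median was 0.27. Of the 10, 1 was called higher and none lower, beside the same shares of all tested genes. Without overlap, 1 was higher and 1 lower (18.1% and 10.0% of all tested genes). The called gene was *Nmnat2*, which makes NAD from nicotinamide mononucleotide. It was at 7.36 ± 0.935 and 21.4 ± 6.38 TPM (SD, n = 3 each), with a log2 difference of 1.44 (adjusted p = 0.0404 by limma-trend). Its adjusted p was 0.0313 to 0.146 over the alternatives, and with a well left out it was under 0.05 only without OSKA + 4OHT replicate 3 (0.0313).

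Of 12 genes of interferon signalling, all tested, 1 was called higher and none lower (2.87% and 1.37% of all tested genes). Their median log2 fold change was 0.24. *Stat2*, the called gene, was at 13.2, 10.3 and 21.9 TPM in the OSKA − 4OHT wells and 44.6, 68.8 and 62.9 TPM in the OSKA + 4OHT wells, and its log2 fold change was 1.97 (standard error 0.319; adjusted p = 0.0239 by limma-trend). The adjusted p of *Stat2* was 0.0190 to 0.0963 over the alternatives, and with a well left out it was under 0.05 only without OSKA − 4OHT replicate 3 (0.0249). *Irf9*, the DNA-binding part of ISGF3, was at 27.9 ± 11.2 and 51.5 ± 1.76 TPM (SD, n = 3 each), with a log2 difference of 0.94 (adjusted p = 0.122 by limma-trend) with no overlap, and its adjusted p was 0.0417 without OSKA − 4OHT replicate 3, in a range of 0.0417 to 0.283. *Irf1*, a transcription factor gene induced by interferon gamma, was at 10.9 ± 3.89 and 20.5 ± 13.8 TPM (SD, n = 3 each), with a log2 difference of 0.76 (adjusted p = 0.434 by limma-trend), and its groups overlapped. Of the 12 genes, 5 were higher and 3 lower without overlap (18.1% and 10.0% of all tested genes), and 6 of these are named here after their values were seen. *Irf7*, an interferon-induced regulator of interferon genes, was at 7.90, 30.5 and 5.37 TPM in the OSKA − 4OHT wells and 58.5, 101 and 43.0 TPM in the OSKA + 4OHT wells, a log2 difference of 2.47 (adjusted p = 0.0888 by limma-trend). Its adjusted p was 0.0370 without OSKA − 4OHT replicate 2, in a range of 0.0370 to 0.245. *Ifnar2*, a subunit gene of the type I interferon receptor, and *Irf3*, a transcription factor gene of antiviral sensing, were higher by 0.46 and 0.75 on the log2 scale (adjusted p = 0.186 and 0.223 by limma-trend). The lower ones were the kinase genes *Jak2* and *Jak1* and the receptor gene *Ifngr1*, with log2 fold changes of -0.66, -0.46 and -0.47 (adjusted p = 0.0624, 0.292 and 0.418 by limma-trend). For *Jak2* it was 0.0333 to 0.183 over the alternatives and under 0.05 in 3 of 14, namely with a mean of at least 5 TPM (0.0472), a trimmed mean of log ratios (0.0333) and quantile normalization (0.0351). The 12 interferon ligand genes were listed at 0 in all 6 wells.

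**Figure D5:**
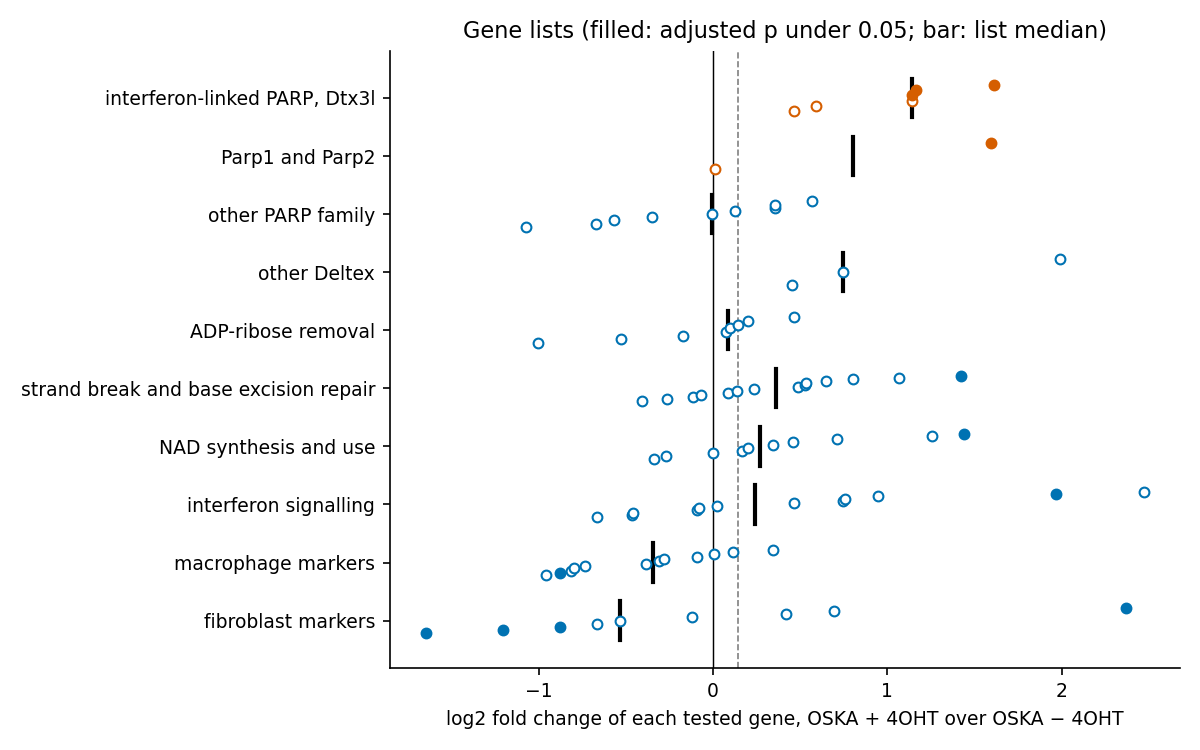
Log2 fold change of each tested gene (horizontal axis) in the members (orange) and in 8 other lists (blue), with filled points for an adjusted p under 0.05, a short bar at each list's median and a dashed line at the median of all tested genes. The interferon-linked genes lie around their median of 1.14 and the other PARP family genes around -0.0074.

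Markers of other cell types were read beside these results. The 12 macrophage markers had a summed level of 182 to 222 TPM in the OSKA − 4OHT wells and 127 to 143 TPM in the OSKA + 4OHT wells, and none was called. *Lyz2* was lower at an adjusted p of 0.0299 by limma-trend, with a log2 fold change of -0.88. Without *Lyz2*, a split made after its values were seen, the other 11 summed to 107, 92.4 and 128 TPM in the OSKA − 4OHT wells and 95.1, 80.2 and 79.3 TPM in the OSKA + 4OHT wells, and the groups overlapped. Of the 12 log2 fold changes, 9 were below 0 and 3 above. Of 6 lymphoid and plasmacytoid markers none was tested and 5 were listed at 0 in every well, and of 6 endothelial markers 2 were tested and none was called. Of the 9 fibroblast markers, *Pdgfrb* and *S100a4* fell (log2 fold changes -1.65 and -1.20, adjusted p = 0.0113 and 0.00690 by limma-trend) and *Lum* rose (2.37, adjusted p = 0.00392 by limma-trend). Of the 9, 5 were lower and 3 higher without overlap (10.0% and 18.1% of all tested genes), and those not called are named after their values were seen. *Col1a2*, *Col1a1* and *Vim* were lower in every OSKA + 4OHT well (-0.88, -0.66 and -0.53, adjusted p = 0.0285, 0.0843 and 0.163 by limma-trend). *Thy1* and *Dcn* were higher in every OSKA + 4OHT well (0.69 and 0.42, adjusted p = 0.203 and 0.141 by limma-trend). The adjusted p of *Col1a2* was 0.00896 to 0.0983 over the alternatives and, with a well left out, under 0.05 only without OSKA + 4OHT replicate 3 (0.0450). Without OSKA + 4OHT replicate 1 the adjusted p of *Pdgfrb* was 0.0542, in a range of 0.00596 to 0.0648. The summed level of 8 pluripotent cell markers was 2.87 to 3.69 TPM in the OSKA − 4OHT wells and 38.1 to 54.2 TPM in the OSKA + 4OHT wells. Of these, 6 were tested and 4 called higher, beside 2.87% of all tested genes, namely *Nanog*, *Zfp42*, *Dppa5a* and *Tdgf1*. The first 3 passed the filter on low values only through the OSKA + 4OHT wells, so their number is no support for a change, and without the filter the adjusted p was 0.0625 for *Nanog* and 0.0557 for *Zfp42* by limma-trend (0.0302 to 0.186 and 0.0107 to 0.144 over the alternatives). With a well left out, *Nanog* and *Zfp42* were called in none of the 6 fits (adjusted p = 0.0576 to 0.186 and 0.0592 to 0.144 by limma-trend) and *Tdgf1* in none of those without an OSKA + 4OHT well (up to 0.0706). *Dppa5a*, listed at 0 in every OSKA − 4OHT well and with a mean of 20.2 TPM in the other group, was called with all wells (adjusted p = 0.00328 by limma-trend) and stayed under 0.05 in all 14 alternatives (0.00228 to 0.0499). The part of the change in fibroblast and pluripotent cell markers in the PARP results was not tested.

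The genes most like the 6 interferon-linked genes were found by Pearson correlation over the 6 wells with the mean of their standardized log2(TPM + 0.5). They were *Plp2* and *Tdgf1* and *Trpc1* with r = 0.996 each, *Hsd17b2* with 0.994 and *Serpinb1a* with 0.993. The wells fall into both treatment groups, so such values are shared by many genes that differ between the groups and are a description only. *Plp2*, a membrane protein gene, was at 438 and 547 TPM in group means (log2 fold change 0.32, adjusted p = 0.104 by limma-trend), a small difference with the same pattern. *Tdgf1*, an EGF-CFC co-receptor gene for Nodal, had a log2 fold change of 2.33 (adjusted p = 0.0128 by limma-trend), *Trpc1*, a cation channel gene, 1.39 (0.0289) and *Serpinb1a*, a protease inhibitor gene, 1.50 (0.0111). *Trpc1* was called in none of the 6 fits that left out a well (0.0629 to 0.119), and *Serpinb1a* was lost without OSKA + 4OHT replicate 2 (0.0547, in a range of 0.00899 to 0.0765). *Hsd17b2*, a steroid dehydrogenase gene, was listed at 0 in all OSKA − 4OHT wells and had a mean of 2.37 TPM in the OSKA + 4OHT group (adjusted p = 0.0744 by limma-trend). It passed the filter on low values only through the OSKA + 4OHT wells. Each of the 6 members correlated with this mean, to which it contributes, with r = 0.910 to 0.969, except *Parp10* with 0.363.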

How the data were processed

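RNA from 6 wells was measured by polyA RNA-seq with a stranded kit. The authors trimmed the reads with Trim Galore, quantified them with Salmon and deposited TPM per gene and well. Versions, annotation release, build and strand setting were not given in the sources used here. The authors also deposited columns of their own edgeR comparison (a log2 fold change and log2 average level, a score that is the F statistic, and a p-value), which were not used. All columns of values per well belonged to the 6 wells. Gene symbols and positions come from GENCODE M21 (GRCm38) by way of the Ensembl identifiers.

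TPM was tested as log2(TPM + 0.5), with genes of a mean of at least 1 TPM, by limma-trend in limma 3.58.1 and R 4.3.3 without a block, with adjustment over all 15382 genes. Fold changes on this scale understate those of low genes. Fits were tested on simulated data. Ratios, windows and figures were made with Python 3.11.15, pandas 2.3.3, scipy 1.17.1 and matplotlib 3.10.9. Alternatives were pseudocounts of 0.1 and 2, no filter, a mean of at least 5 TPM, the replicate block, scaling by a trimmed mean of log ratios, quantile normalization, no variance trend, and leaving out each well. Count models were not run, since TPM keeps no counts.

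The members and gene lists were chosen with earlier results of these data known. Genes named beside the members are those called in a list (with *Stat2*, *Irf9* and *Irf1* always), the tested neighbours on chromosome 16 and the 5 genes nearest in pattern. The result of another gene that falls under this rule is left out. Others are marked as named after their values were seen.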

Additional observations from a re-analysis of the deposited data

How the results depend on the processing

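Whether the replicate numbers pair the wells is not settled. Across genes, deviations from the group means correlated with r = 0.0235, 0.0341 and 0.0837 between same-numbered wells of the groups. Between wells of different numbers, r was -0.0620 to 0.0327. Values this small cannot show whether the wells are paired. With the number as a block, the log2 fold changes were those given, and the adjusted p-values by limma-trend were 0.0718 for *Parp9* (1.61), 0.127 for *Dtx3l* (1.14), 0.0857 for *Parp12* (1.16) and 0.0574 for *Parp1* (1.60). Then 0 of the 6 interferon-linked genes, 0 genes of the 6 other pathway lists (3 before) and 0 neighbours (1 before) were called higher, as were 31 genes in all (441 before), with 16 lower (210 before). The block takes residual degrees of freedom.

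Without the variance trend, *Parp9* (1.61) had an adjusted p of 0.0507 by limma, and 1 gene of the pathway lists was called, as without the filter on low genes (1). After quantile normalization, *Dtx3l* was at 0.99 (adjusted p = 0.0579 by limma-trend). *Parp2* was at -0.12 when a trimmed mean of log ratios set the scale and at -0.13 after quantile normalization. These scalings moved the median of all genes from 0.14 to 0.023 and -0.0047, and the share of higher genes among those called from 67.7% to 54.8% and 53.1%.

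With 1 well left out, the log2 fold change was 1.32 to 1.77 for *Parp9*, 1.05 to 1.28 for *Dtx3l*, 1.03 to 1.30 for *Parp14*, 1.09 to 1.23 for *Parp12*, 1.55 to 1.67 for *Parp1*, 0.48 to 0.67 for *Parp11*, -0.19 to 1.14 for *Parp10* and -0.39 to 0.40 for *Parp2*. Between 0 and 3 of the 6 interferon-linked genes were called, by either threshold, namely 0 when OSKA + 4OHT replicate 1 or 2 was left out, 1 when OSKA + 4OHT replicate 3 or OSKA − 4OHT replicate 2 or 3 was, and 3 when OSKA − 4OHT replicate 1 was. Between 0 and 2 genes of the pathway lists and 0 and 1 neighbours were called. Over all genes, 111 were called higher without replicate 1 of the OSKA + 4OHT group, 123 without its replicate 2 and 224 to 303 without any other well. *Hspbap1* was at -0.15 to 0.066, *Kpna1* at -0.26 to 0.15 and *Gm15564* at -0.49 to 1.15. The causes were not tested, beyond the smaller number of wells.

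The differences between members and *Parp1* or *Parp2* were taken on ratios within a well, where scaling cancels apart from the pseudocount. Without counts, the precision of a single TPM value is unknown. A gene that was not called is not shown to be unchanged.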
